A study of Homo sapiens with 4 samples.

Results

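Fatty acid synthesis and desaturation are covered here by 10 enzyme genes, chosen by symbol: ACLY, ACSS2, ME1, ACACA, FASN, ELOVL6, ELOVL5, SCD, FADS2 and FADS1. Each was measured by 1 probe set, and all 10 were among the 24241 genes measured under a symbol. The cells were of the MOLM-14 line, which comes from human acute myeloid leukaemia and is an established cell line, grown in alpha-MEM medium with foetal bovine serum. In 2 cultures, rapamycin was given at 10 nM for 12 h, followed by GSK621 at 30 µM for 6 h, and in 2 other cultures GSK621 was given alone at the same dose and time. Rapamycin inhibits the growth-controlling kinase complex mTORC1, and GSK621 activates the energy sensor kinase AMPK. Both groups thus received GSK621, and cells without it, or with rapamycin alone, were not analysed here. An effect of rapamycin itself and a changed response to GSK621 cannot be told apart. Expression was measured on 1 Affymetrix whole-transcript array per culture, and the labels call the cultures biological replicates. In such bulk RNA, fewer cells expressing a gene and less of its RNA per cell cannot be told apart.

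Cells build fatty acids from acetyl-CoA, which ATP citrate lyase (ACLY) makes from citrate and acetyl-CoA synthetase (ACSS2) makes from acetate. Acetyl-CoA carboxylase (ACACA) turns it into malonyl-CoA, and fatty acid synthase (FASN) joins malonyl units into palmitate with NADPH, part of which comes from malic enzyme (ME1). Elongases (ELOVL6 and ELOVL5) lengthen the chain, and desaturases add double bonds, SCD to saturated chains and FADS2 and FADS1 to dietary polyunsaturated ones. Most of these genes are known targets of the SREBP transcription factors, whose activity mTORC1 promotes, and ME1 is also a known target of NRF2, a regulator of antioxidant genes. AMPK phosphorylates acetyl-CoA carboxylase and so restrains the pathway at the protein level, which these arrays do not measure.

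After rapamycin and GSK621, the genes supplying acetyl-CoA and NADPH and the 3 desaturase genes of the 10 had lower values than after GSK621 alone. ACACA and FASN, which build the chain itself, and the elongase gene ELOVL6 had overlapping values. The elongase gene ELOVL5 had higher values without overlap. The steps of the pathway were not tested against each other. ME1 showed the largest measured difference of the 10, at 0.378 times its level after GSK621 alone. Its level after rapamycin lay below the array medians, where it is unknown whether the probe set stood above background, so the ratio may not be exact. FADS2 was at 0.590 times, ACSS2 at 0.697 times and FADS1 at 0.714 times. None of these differences passed an adjusted p under 0.05 over all genes with limma, where 0 of 24241 genes (0%) passed and the smallest adjusted p was 0.172. Before adjustment, 2064 genes had a p under 0.05. With a variance trend and robust estimation, ME1, FADS2 and FADS1 did pass, in a setting where 0.223% of all genes passed as lower and 0.0825% as higher.

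**Figure D1:**
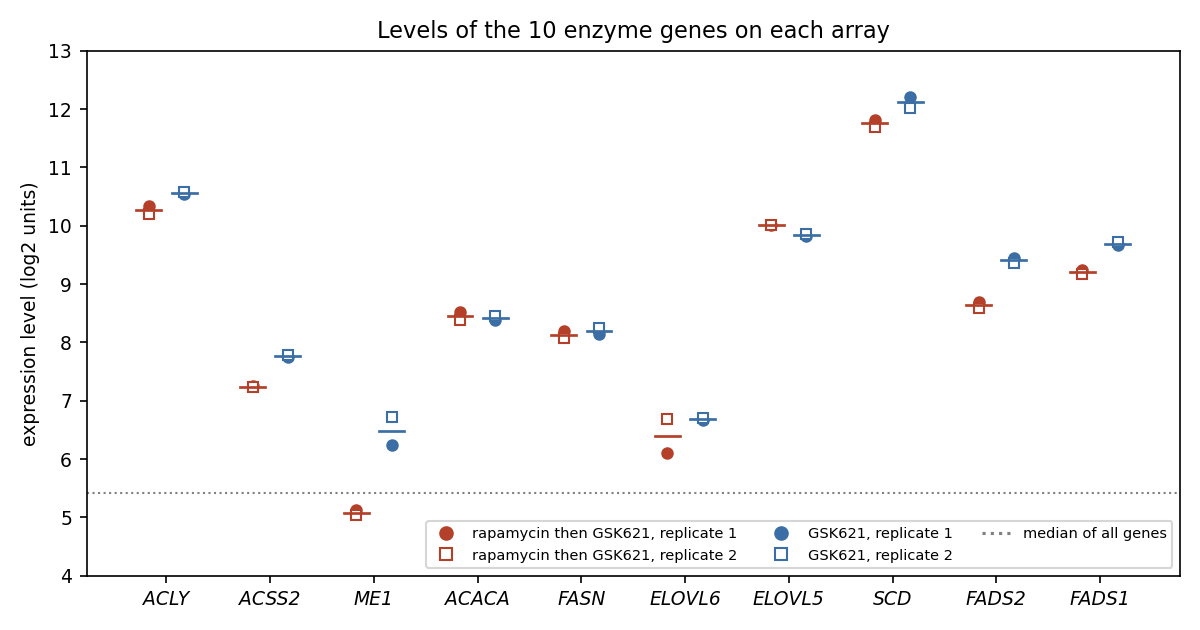
Expression level (log2 units) of each of the 10 genes on the 4 arrays, with rapamycin then GSK621 on the left of each pair and GSK621 on the right; symbols mark replicates 1 and 2, short lines the group means and the dotted line the median of all genes. ACSS2, ME1, FADS2 and FADS1 show the clearest separation of the groups, and ACACA and FASN overlap.

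The sequence just before the transcription start is shown for 4 genes that were lower after rapamycin, ME1, ACLY, ACSS2 and SCD, and for ELOVL5, which was not. Each run gives the 250 bases before the most upstream start listed by RefSeq on GRCh38.p14, on the gene's strand. They lie at chr6:83431052-83431301 (minus strand) for ME1, chr17:41919023-41919272 (minus) for ACLY, chr20:34874739-34874988 (plus) for ACSS2, chr10:100346983-100347232 (plus) for SCD and chr6:53348951-53349200 (minus) for ELOVL5. Capitals mark the core letters of an antioxidant response element (TGACNNNGC), an NF-Y box (CCAAT) or an E-box (CACGTG), searched on both strands. The printed genes are those whose window held any of these letters. The windows of FADS2 and FADS1, which were also lower, and of ACACA and ELOVL6 held none of them and are not printed.
ME1: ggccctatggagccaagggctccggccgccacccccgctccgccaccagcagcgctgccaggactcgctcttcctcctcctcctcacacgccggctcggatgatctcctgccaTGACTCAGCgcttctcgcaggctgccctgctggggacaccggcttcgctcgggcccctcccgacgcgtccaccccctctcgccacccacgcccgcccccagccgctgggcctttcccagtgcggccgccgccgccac
ACLY: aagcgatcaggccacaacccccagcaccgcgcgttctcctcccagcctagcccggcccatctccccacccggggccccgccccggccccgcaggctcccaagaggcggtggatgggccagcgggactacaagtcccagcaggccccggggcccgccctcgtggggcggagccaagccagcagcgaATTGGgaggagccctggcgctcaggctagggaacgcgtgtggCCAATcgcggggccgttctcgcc
ACSS2: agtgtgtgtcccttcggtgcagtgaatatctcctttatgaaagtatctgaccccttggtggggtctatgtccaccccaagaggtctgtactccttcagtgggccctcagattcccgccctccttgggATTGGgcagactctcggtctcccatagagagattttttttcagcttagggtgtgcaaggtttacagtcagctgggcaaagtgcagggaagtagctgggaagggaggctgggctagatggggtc
SCD: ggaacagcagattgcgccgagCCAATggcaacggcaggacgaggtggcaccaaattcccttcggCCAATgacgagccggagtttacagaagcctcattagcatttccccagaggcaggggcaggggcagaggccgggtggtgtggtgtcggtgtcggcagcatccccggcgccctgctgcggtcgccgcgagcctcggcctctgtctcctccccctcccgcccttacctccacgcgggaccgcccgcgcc
ELOVL5: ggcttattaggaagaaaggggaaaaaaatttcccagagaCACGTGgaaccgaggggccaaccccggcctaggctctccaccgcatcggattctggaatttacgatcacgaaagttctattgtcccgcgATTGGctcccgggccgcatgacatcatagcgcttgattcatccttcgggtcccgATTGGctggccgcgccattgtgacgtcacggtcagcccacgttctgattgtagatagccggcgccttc

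In ME1 the antioxidant response element letters stood once, from position -137 to -129 before the start. These letters were found in 10.9% of the 35116 RefSeq windows of the same length, and in 1 of the 9 members with a window. CCAAT stood in 4 of the 9, ACLY, ACSS2, SCD and ELOVL5, against 32.0% of all windows. Members were counted at their most upstream start, while the windows of all genes include other starts. ACACA held CCAAT before other listed starts, which are not counted here. In SCD the box stood in 2 copies on the printed strand, starting at -229 and -186. ACLY held 2 copies, at -65 on the opposite strand and at -23, ACSS2 held 1 at -123 on the opposite strand, and ELOVL5 held 2 on the opposite strand at -122 and -68. CCAAT thus stood in ACLY, ACSS2 and SCD, which were lower after rapamycin, and in ELOVL5, whose interval included 0. A link between these letters and the differences was not tested. CACGTG stood in 1 member, ELOVL5, at -211, against 6.34% of windows. GGGCGG, the GC box, stood in 7 of the 9, against 42.6% of windows, and is not capitalised. No 2 of the marked matches overlapped. The core letters of a sterol regulatory element, TCACNCCAC, stood in 0 of the 9 windows, against 0.883% of all windows. With so low a share and so few windows this count shows little, and bases further from the start were not searched. A match describes letters in the window and not a bound site.

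Of the supply enzymes, ME1 makes NADPH by turning malate into pyruvate in the cytosol. Its levels were 5.12 and 5.04 on the log2 scale after rapamycin and GSK621, against 6.25 and 6.73 after GSK621 alone. Both arrays after rapamycin lay below both GSK621 arrays, and the GSK621 arrays were the more spread out. The means were 5.08 ± 0.06 after rapamycin and GSK621 and 6.49 ± 0.34 after GSK621 (SD, n = 2 each), a log2 difference of −1.41 ± 0.17 (SE) with a 95% interval of −1.84 to −0.97. Of the 24241 genes, 1 had a more negative difference, the metallothionein gene MT1M. The adjusted p of ME1 was 0.309, and it ranked 24 of all genes by unadjusted p. After rapamycin, ME1 lay below the array medians of 5.41 and 5.38, a range in which no detection call was at hand. TTR, a liver gene and the highest in the list of adipocyte and hepatocyte markers, had a mean of 5.76 after rapamycin and GSK621 and 5.81 after GSK621. Of the same list, APOA2 (5.54) and PLIN1 (5.33) also lay above ME1 after rapamycin and GSK621. LEP (3.94), ADIPOQ (3.75) and ALB (3.57) lay below it. Whether ME1 stood above background after rapamycin was not tested.

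ACSS2, which recaptures acetate, had 7.25 and 7.23 after rapamycin and GSK621, against 7.74 and 7.79 after GSK621 alone. The groups did not overlap, and both had narrow spreads, with an SD of 0.015 after rapamycin and GSK621 and 0.030 after GSK621. The log2 difference was −0.52 ± 0.09 (SE), with an adjusted p of 0.430. ACLY, the main route from glucose carbon to cytosolic acetyl-CoA, had 10.34 and 10.21 after rapamycin and GSK621, against 10.54 and 10.57 after GSK621. These arrays did not overlap either, and the log2 difference was −0.28 ± 0.10 with a 95% interval of −0.54 to −0.03 and an adjusted p of 0.569. The ACSS2 value minus the ACLY value on the same array was −3.09 and −2.97 after rapamycin and GSK621, against −2.80 and −2.79 after GSK621, a change of −0.24. These values did not overlap between the groups, and they compare changes and not levels of the genes. For ME1 minus ACLY the values were −5.22 and −5.17 after rapamycin and GSK621, against −4.30 and −3.84 after GSK621, a change of −1.12. These and the other within-array differences below were not tested and are given as values.

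The chain-building enzymes showed no separation. ACACA, whose product malonyl-CoA commits carbon to fat, had 8.52 and 8.38 after rapamycin and GSK621, against 8.39 and 8.46 after GSK621. The log2 difference was 0.03 ± 0.10, with a 95% interval of −0.23 to 0.28. FASN, the enzyme that assembles palmitate, had 8.20 and 8.07 after rapamycin and GSK621, against 8.15 and 8.24 after GSK621. Its difference was −0.06 ± 0.10, with an interval of −0.32 to 0.20. The ACLY difference of −0.28 lay inside the interval of FASN and outside that of ACACA. The sign of both genes turned when 1 array was left out. Without replicate 1 of rapamycin then GSK621, ACACA came to −0.04, and without GSK621 replicate 1 to −0.0071. FASN came to 0.0047 without replicate 2 of rapamycin then GSK621. FASN minus ACACA on the same array was −0.32 and −0.31 after rapamycin and GSK621, against −0.25 and −0.21 after GSK621. These values did not overlap, with a small change of −0.09, although each gene alone did.

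**Figure D2:**
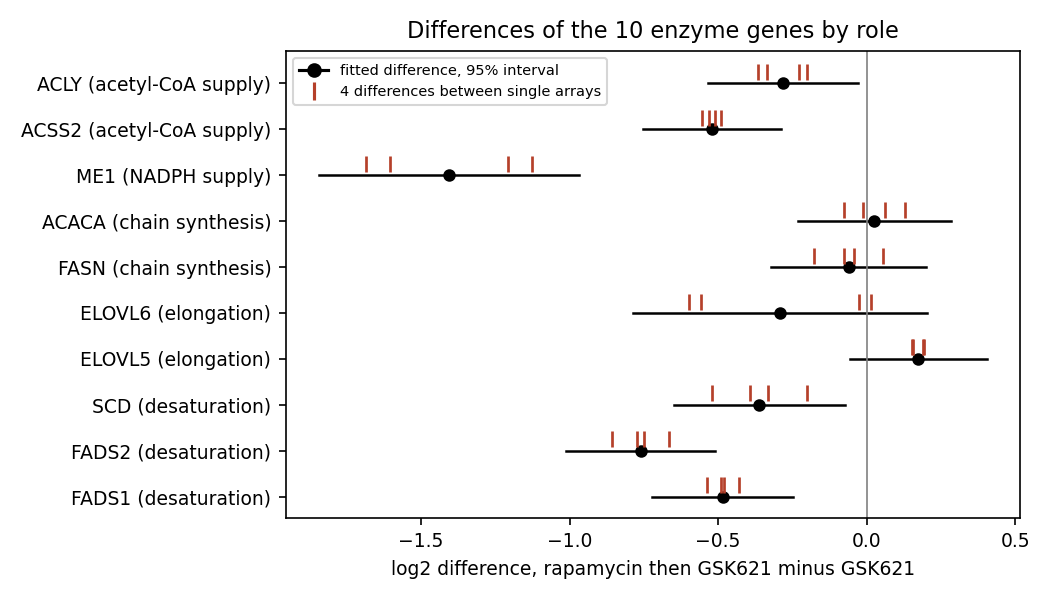
Log2 difference (rapamycin then GSK621 minus GSK621) of the 10 genes by role, with dots for the fitted values, black lines for unadjusted 95% intervals from limma and red ticks for the 4 differences between single arrays. The intervals of ACLY, ACSS2, ME1, SCD, FADS2 and FADS1 lie below 0, and those of ACACA, FASN, ELOVL6 and ELOVL5 include 0.

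The elongases differed in sign. ELOVL6, which lengthens palmitate to stearate, had 6.10 and 6.68 after rapamycin and GSK621, against 6.66 and 6.70 after GSK621. Replicate 1 after rapamycin stood apart, while replicate 2 lay between the GSK621 arrays. The log2 difference of −0.29 ± 0.20 rested on that array, with a 95% interval of −0.79 to 0.20. It came to −0.0052 without replicate 1 of rapamycin then GSK621 and to −0.58 without replicate 2. ELOVL6 minus ELOVL5 was −3.91 and −3.34 after rapamycin and GSK621, against −3.16 on both arrays after GSK621. ELOVL5, which lengthens polyunsaturated chains between the steps of FADS2 and FADS1, had 10.02 on both arrays after rapamycin and GSK621, against 9.83 and 9.86 after GSK621. It was the only member of the 10 with non-overlapping higher values, at 0.17 ± 0.09, and its interval of −0.06 to 0.40 included 0. Its adjusted p was 0.673.

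Of the desaturases, SCD, FADS2 and FADS1 were lower on both arrays after rapamycin and GSK621 than on either array after GSK621 alone. SCD, which makes oleate and palmitoleate, had 11.82 and 11.69 after rapamycin and GSK621, against 12.21 and 12.02 after GSK621. The log2 difference was −0.36 ± 0.11 with an adjusted p of 0.562. SCD has a processed pseudogene in the human genome, and how far its probes also bind that RNA is unknown here. Without GSK621 replicate 1 the difference of SCD was −0.27, and without GSK621 replicate 2 it was −0.46. FADS2, the delta-6 desaturase that starts the conversion of linoleic and alpha-linolenic acid, had 8.70 and 8.59 after rapamycin and GSK621, against 9.45 and 9.37 after GSK621. The groups were separated by several times their spread, with means of 8.65 ± 0.08 after rapamycin and GSK621 and 9.41 ± 0.06 after GSK621 (SD, n = 2 each). The log2 difference was −0.76 ± 0.10, with a 95% interval of −1.01 to −0.51 and an adjusted p of 0.359. FADS1, the delta-5 desaturase that completes arachidonic acid, had 9.24 and 9.18 after rapamycin and GSK621, against 9.67 and 9.72 after GSK621. Its difference was −0.49 ± 0.09, with an interval of −0.72 to −0.25 and an adjusted p of 0.430.

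Within single arrays, FADS2 minus SCD was −3.12 and −3.10 after rapamycin and GSK621, against −2.76 and −2.65 after GSK621, a change of −0.40. FADS2 minus FADS1 was −0.54 and −0.58 after rapamycin and GSK621, against −0.22 and −0.35 after GSK621, a change of −0.28. In both pairs the groups did not overlap. Of single genes 18.9% had non-overlapping lower values, but no such share was computed for pairs of genes. The difference between the changes was not tested. FADS1 minus SCD was −2.58 and −2.51 after rapamycin and GSK621, against −2.54 and −2.31 after GSK621, and overlapped. The 2 FADS genes are neighbours on chromosome 11, on opposite strands with overlapping starts. In the RefSeq promoter table the FADS1 start lay 800 bases inside FADS2. Whether probes of 1 gene also read RNA of the other was not tested. The other genes around them did not all follow. TMEM258 had a log2 difference of 0.07 ± 0.10 and FEN1, a flap endonuclease of DNA replication, had 0.23 ± 0.10. Both had higher and non-overlapping values, as did 20.5% of all genes. FADS3, the third gene of the cluster, had 6.42 and 5.75 after rapamycin and GSK621, against 6.21 and 6.29 after GSK621, and overlapped. RAB3IL1 had 0.16 ± 0.13 and overlapped, and BEST1, a chloride channel gene, was lower at −0.38 ± 0.09. These 4 flanking genes are the nearest measured protein-coding genes on either side, a choice by place that was made after the FADS values were seen.

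**Figure D3:**
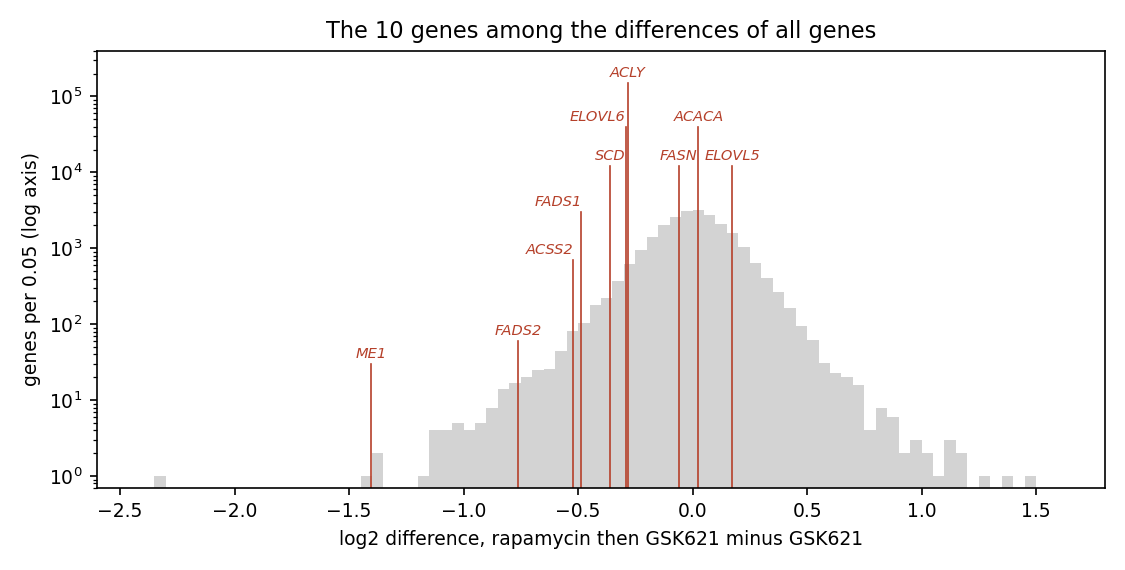
Number of genes (log axis) by log2 difference (rapamycin then GSK621 minus GSK621) in steps of 0.05, with red lines at the 10 enzyme genes. ME1 stands at −1.41 near the lowest end of all 24241 genes, FADS2 at −0.76, and ACACA and FASN lie in the centre.

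Of the 10 genes, 8 had a negative difference, against 48.8% of all genes. The arrays did not overlap for 6 lower members, ACLY, ACSS2, ME1, SCD, FADS2 and FADS1, against 18.9% of all genes, and for 1 higher member, ELOVL5, against 20.5%. The same 6 had an unadjusted p under 0.05 as lower, against 4.2% of all genes, and 0 had one as higher, against 4.31%. By their mean over the 4 arrays all 10 lay above the median level of all genes, ME1 through its GSK621 arrays alone, since its mean of 5.08 after rapamycin was below that median of 5.415. Among genes above the median, 4.64% had such a p as lower and 5.77% as higher, and 21% and 26% had non-overlapping lower and higher values. The median log2 difference of the 10 was −0.33, against 0.0045 over all genes. The symbols were chosen with earlier results of these data known, so these counts describe the 10 genes and test nothing. When 1 array was left out, 4 to 6 members had an unadjusted p under 0.05 as lower, against 3.16% to 4.02% of all genes. ACSS2, ME1, FADS2 and FADS1 were among them each time, and ELOVL6 joined them without replicate 2 of rapamycin then GSK621.

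**Figure D4:**
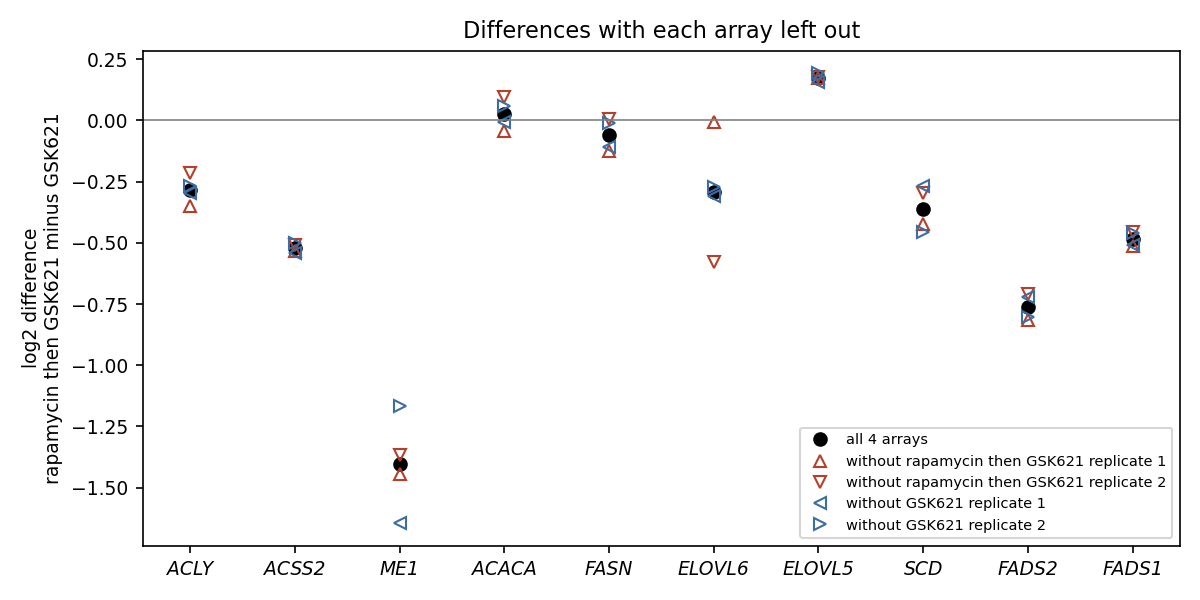
Log2 difference (rapamycin then GSK621 minus GSK621) of each gene with all 4 arrays (black dots) and with 1 array left out (triangles, red for a left-out array of rapamycin then GSK621 and blue for one of GSK621). ELOVL6 spans −0.58 to −0.0052 and ME1 spans −1.65 to −1.17, while ACSS2, FADS1 and ELOVL5 move little.

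Genes around the pathway were read from 10 further lists, written with earlier results known, in which 120 of 133 genes were used. Over all genes 0 of these passed an adjusted p under 0.05. Other elongation and desaturation genes did not follow the desaturases above, with 6 of 13 lower and a median log2 difference of 0.03. ELOVL3, an elongase of long saturated chains, had 0.45 ± 0.15 at a low level (percentile 29.2 of all genes), and ELOVL1 had 0.22 ± 0.10. Of the genes for precursor and NADPH supply, 9 of 13 were lower, with a median of −0.11. The outlying member was IDH1, the cytosolic NADPH-producing isocitrate dehydrogenase, with −0.53 ± 0.10 and an adjusted p of 0.430. ACSS3 had 0.19 ± 0.10. The relatives of ME1 in mitochondria had smaller differences, ME2 with −0.16 ± 0.10 and ME3 with −0.04 ± 0.11.

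Mitochondrial fatty acid synthesis had 3 of 6 genes lower and a median of 0.02, with ACSF3, a malonyl-CoA synthetase, at 0.28 ± 0.09 and CBR4 at −0.20 ± 0.12. The cytochrome b5 genes and reductases that pass electrons to desaturases had 5 of 6 lower and a median of −0.05. None of the 6 reached an unadjusted p under 0.05, which 4.2% of all genes did as lower and 4.31% as higher, so with so few genes this count shows little. In that list CYB5A had 0.20 ± 0.15 and CYB5B −0.12 ± 0.11. Genes of fatty acid activation and uptake had 5 of 11 lower and a median of 0.02. Of these, ACSL4, which activates arachidonic acid, had −0.33 ± 0.09, and the transporter SLC27A4 had 0.21 ± 0.10. In glycerolipid synthesis, 8 of 13 genes were lower, with a median of −0.03. DGAT1, which adds the last chain of triglycerides, had 0.38 ± 0.09, and GPAT2 had −0.28 ± 0.11. Fatty acid oxidation, the opposite pathway, had 10 of 19 lower, a median of −0.01 and 0 genes with an unadjusted p under 0.05, which is near the 4.2% lower and 4.31% higher of all genes for a list of this size. The mitochondrial entry enzyme CPT1A had 0.20 ± 0.10 and the carnitine carrier SLC25A20 had 0.18 ± 0.09.

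**Figure D5:**
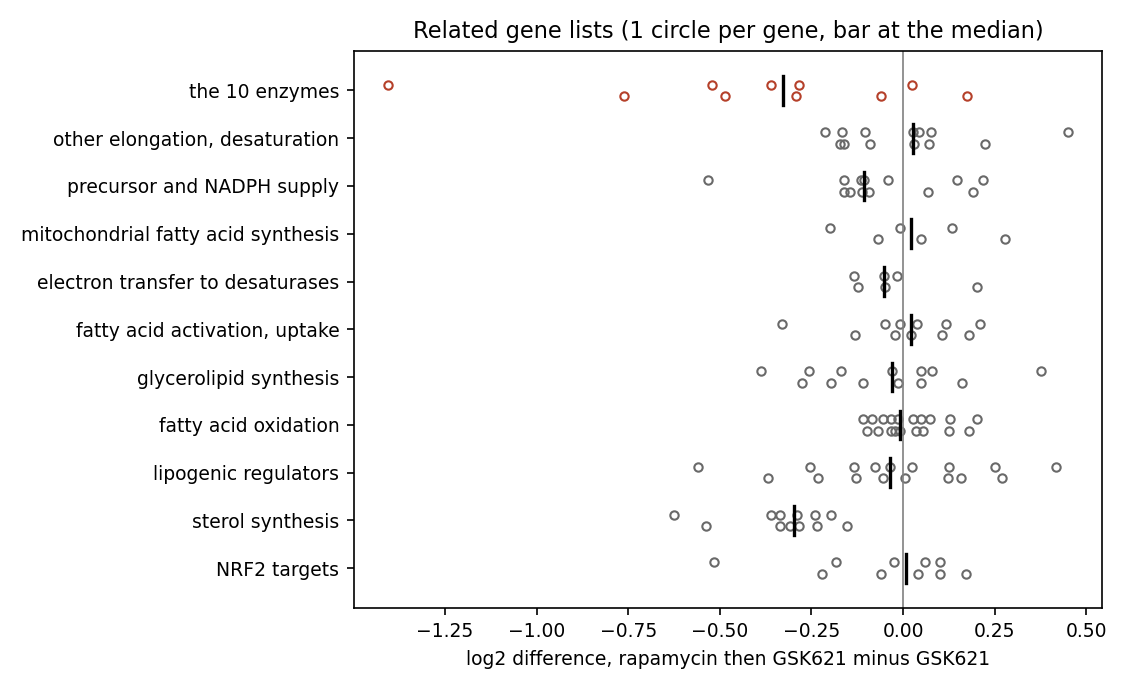
Log2 difference (rapamycin then GSK621 minus GSK621) of the genes in the 10 enzymes and 10 related lists, 1 circle per gene, with a bar at each list's median. The medians of the 10 enzymes (−0.33) and of sterol synthesis (−0.30) stand left of 0, and those of the other lists lie between −0.11 and 0.03.

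Of the transcriptional regulators, 9 of 17 were lower, with a median of −0.04. SREBF1, which encodes the SREBP most tied to fatty acid genes, had −0.25 ± 0.11, with non-overlapping arrays and an adjusted p of 0.603. SREBF2, its relative for sterol genes, had −0.08 ± 0.10. INSIG1, which holds SREBP precursors in the endoplasmic reticulum and is itself an SREBP target, had −0.37 ± 0.11, and INSIG2 had −0.56 ± 0.17. PPARGC1B, a coactivator of SREBPs, had 0.42 ± 0.11, and USF2 had 0.27 ± 0.10. Of the 17 regulators, 2 had an unadjusted p under 0.05 as lower and 2 as higher, against 4.2% and 4.31% of all genes. The carbohydrate sensor gene MLXIPL had 0.02 ± 0.15 and the liver X receptor gene NR1H3 had 0.12 ± 0.11, both with overlapping arrays. Of 18 listed genes of sterol synthesis and uptake, which share SREBP control, 12 were matched to a measured gene. Values of the others are not known here. All 12 were lower, with a median of −0.30, and 8 had an unadjusted p under 0.05, which 4.2% of all genes had as lower. STARD4, a cholesterol carrier, had −0.54 ± 0.10 and HMGCS1, the synthase that starts the mevalonate pathway, had −0.62 ± 0.17.

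ME1 was also read beside NRF2 and its targets. NFE2L2, the gene of NRF2, had −0.13 ± 0.10. Of 10 other NRF2 targets, 5 were lower and the median was 0.01. NQO1, a quinone reductase, had −0.52 ± 0.09 with non-overlapping arrays, and SLC7A11, the cystine transporter, had −0.22 ± 0.09. GCLM had −0.18 ± 0.09. In all, 3 of the 10 targets had non-overlapping lower values (NQO1, SLC7A11 and GCLM), against 18.9% of all genes, 1 had non-overlapping higher values (TKT, at 0.10 ± 0.10), against 20.5%, and the other 6 overlapped.

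Genes whose 4 array values deviated from their own mean most like those of the 3 members with the largest differences were found by Euclidean distance. For ME1 these were ESRP1, a splicing regulator, at a distance of 0.259 on the log2 scale, and the cytokine receptor gene IL31RA at 0.284. For FADS2 they were GNG2, a G protein subunit, at 0.022 and the stress gene GADD45A at 0.062. For ACSS2 they were the G protein subunit gene GNA15 at 0.015 and the immunoglobulin segment IGHJ6 at 0.023. With 4 arrays per gene, such likeness is a description only.

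The arrays were alike in scale, with medians from 5.37 to 5.43 and Pearson correlations between 0.993 and 0.994 across probe sets, and probe sets are no independent replicates. The median SE of a log2 difference was 0.11, which the number of arrays limits. Of the myeloid markers, LYZ, CD68, FLT3 and MEIS1 stood at percentiles 99.7, 99.4, 98.0 and 92.4 of all genes, and MPO stood at 60.9. Lymphoid markers lay between percentiles 14.5 and 52.4, and adipocyte and hepatocyte markers between 16.8 and 55.4. Erythroid markers lay between 3.04 and 62.7, the last being EPOR. Of the 8 myeloid markers, 5 were higher and 3 lower after rapamycin. FLT3 (0.34 ± 0.09) and CSF3R (0.43 ± 0.10) had an unadjusted p under 0.05, both higher, against 4.31% of all genes. MPO (−0.23 ± 0.10) and MEIS1 (−0.13 ± 0.10) were lower with non-overlapping arrays, against 18.9% of all genes. Another 4, FLT3 and CSF3R among them, were higher with non-overlapping arrays, against 20.5%. The part of these markers in the differences above was not tested.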

How the data were processed

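The 4 arrays hold total RNA of MOLM-14 cells, 2 per group. RNA was purified on silica columns and made into biotin-labelled target for whole-transcript arrays of Affymetrix, per the labels' protocols. R 2.15.3 and Partek are named, without a role, per the submitters' processing notes. Background correction, normalization, probe summary and log base are not given in the sources used here. Values in the deposited table ran from 1.84 to 13.28 with like medians on each array and were taken to be on a log2 scale. Of 25582 probe sets, 24244 carried 1 symbol, 0 several and 1338 none in the platform annotation. For 3 symbols with more than 1 probe set, that with the highest mean was used.

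The groups (rapamycin then GSK621 minus GSK621) were compared with limma 3.58.1 (lmFit, eBayes) under R 4.3.3, two-sided and without a filter. P-values were Benjamini-Hochberg adjusted over 24241 genes, with a threshold of 0.05, on 2 residual and 3.39 prior degrees of freedom. In simulated data over 24241 genes, the fit called 60 of 100 genes with a simulated log2 difference of 1, 95 of 100 with one of 2 and 15 unchanged genes. Among the measured genes, where differences reached −2.33, 0 passed. The simulated counts therefore do not give the share of true differences that these arrays would find. The rule named the 10 members, 6 regulators, the 2 genes of smallest p per related list and 2 nearest patterns for each of 3 members. ME2, ME3, INSIG2, USF2, MT1M, TTR, GCLM, TKT and single markers fall outside it and were picked once their values had been seen. The FADS neighbours, also outside it, were taken by their place after the FADS values had been seen. Members and lists were chosen with earlier results of these data known. Upstream sequences came from the RefSeq promoter table (GRCh38.p14), which matched 9 of the 10 members and had no entry for FASN.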

Additional observations from a re-analysis of the deposited data

How the results depend on the processing

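The 10 members were refitted in 11 other settings: quantile normalization, centred arrays, genes above the median level, the mean of a gene's probe sets, the replicate number as a block, ordinary unmoderated tests, robust moderation with a variance trend, and each array left out. Of 110 such differences, 3 turned sign, each with 1 array left out. ACACA came to −0.0439 and −0.0071 in 2 of these, over a range of −0.0439 to 0.0952, and FASN to 0.0047, over a range of −0.127 to 0.0047. With the variance trend, 3 members passed, ME1 (adjusted p = 0.0331), FADS2 (0.0200) and FADS1 (0.0331), among 74 genes in all. Over all settings their adjusted p ran up to 0.809, and the cause was not tested. Genes past the threshold were 3 with genes above the median level, 1 in unmoderated tests, 3 at an adjusted p under 0.2, and 0 with each array left out, as were members. With arrays left out, the members' median ran from −0.388 to −0.304, those lower at an unadjusted p under 0.05 from 4 to 6 (3.16% to 4.02% of all genes), and those lower without overlap from 6 to 8. With 3 arrays, 32.8% to 35% of all genes were lower without overlap, against 18.9% with 4, so that count is no sign of stability. The titles share replicate numbers, but no label ties them to a batch, and deviations from the group means correlated at 0.0923. With the replicate block, 0 genes passed, and the same 6 members had an unadjusted p under 0.05 as lower. In unmoderated tests only 4 did, ACSS2, ME1, FADS2 and FADS1, against 3.86% of all genes, and 1 member was higher. With the variance trend the same 6 were lower, against 5.05% of all genes, and 1 was higher, ELOVL5 (unadjusted p = 0.0167). The share of all genes that was higher was not computed for these 2 settings. Signal over background was not at hand.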
